A study of Rattus norvegicus with 30 samples.

Results

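Genes of cholesterol synthesis, uptake and its control were followed in rat hepatocytes exposed to clofibrate. The set came from a list of 31 gene names that runs from acetyl-CoA to cholesterol and adds SREBP control proteins, sterol carriers, esterification enzymes, a sterol exporter and lipin. The list was chosen with earlier results of these data known. A probe set with a single gene symbol stood for 28 of them, the brightest over all arrays where a gene had several. Of these, 27 passed a filter on low signal, out of 10627 genes tested in all: 7 of the mevalonate and isoprenoid steps, 11 of the squalene and sterol steps, 5 of SREBP control, 2 of sterol transport, and the exporter Abca1 with Lpin1. Hmgcs1, Npc1 and Soat2 are not analysed here. Soat1, which esterifies cholesterol, lay under the filter, with signals between 74.6 and 375, and got no test. Clofibrate, a lipid-lowering fibrate and an activator of the receptor PPAR-alpha, was given in DMSO at 60 uM or 1000 uM for 24 or 48 h, and cultures given 1% DMSO alone at each time were the controls. The cells were thawed primary hepatocytes of male Sprague Dawley rats under a Matrigel overlay, dosed on culture day 3. Each of the 6 groups held 5 cultures, each a separate well measured on 1 Affymetrix array, which gave 30 arrays. The labels name no separate animals, so the p-values rest on the spread between wells, and precision is limited by the number of arrays.

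Cholesterol is built from acetyl-CoA through mevalonate and isoprenoid diphosphates to squalene, which is closed into lanosterol and then trimmed and reduced to cholesterol. The genes are governed mainly by SREBP, a membrane-bound factor that Scap carries from the endoplasmic reticulum to the Golgi for cutting when sterols are scarce, while Insig proteins hold Scap back when sterols are plentiful. The liver is a main site of this synthesis, and it also takes up lipoproteins, exports cholesterol and turns it into bile acids.

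Values are MAS5 signals on a linear scale, in arbitrary units, which the authors scaled so that every array had the same trimmed mean. A change is the log2 difference between 2 groups, given ± SE. A gene passed where limma's p, adjusted by Benjamini-Hochberg over 18625 probe sets, was under 0.05. Arrays of a group correlated at 0.964 to 0.979, and replicate 1 of DMSO at 48 h stood apart with a residual SD of 0.336, against 0.243 to 0.297 on the other arrays. The call on Insig2 for 1000 uM at 48 h was the only one against DMSO at that dose that was lost without that array. The summed signal of 8 of 9 hepatocyte markers ran 397315 to 419366 at 1000 uM, against 443225 to 529570.0 in DMSO at 48 h, and 406738 to 442963 against 486200.0 to 540946 at 24 h. Apoc3 was the brightest, and the single markers were mixed. At 1000 uM and 48 h, 12.5% of the 8 rose and 37.5% fell, beside 15.2% and 22.7% of all probe sets. At 24 h the shares were 12.5% and 50%, beside 11.5% and 17.4%. The median change was -0.01 at 48 h and -0.17 at 24 h, against -0.04 and -0.05 over all probe sets. For 10 of 12 Kupffer cell markers the sum was 7647 to 8645 at 1000 uM, against 10933 to 12071 in DMSO at 48 h, and 9562 to 11675 against 12691 to 14303 at 24 h. Lyz2 was the brightest of these, at a mean log2 of 12.5, with Cd68 next at 10.6. Of 7 tested at 1000 uM, 2 fell and 0 rose at 48 h (28.6% and 0%), with 4 changes above 0 and a median of 0.10. At 24 h, 1 fell and 0 rose (14.3% and 0%), with 7 changes under 0 and a median of -0.07. For 4 of 5 bile duct markers, almost all of it Epcam, it was 9848 to 10481 at 1000 uM, against 12603 to 15029.7 in DMSO at 48 h, and 7061 to 8077 against 9815 to 11389.9 at 24 h. All 3 sums lay lower at 1000 uM than in DMSO on all 5 arrays at both times. At 60 uM the Kupffer sum also lay wholly under DMSO, at 9089 to 10378 at 48 h and 11034 to 12387 at 24 h, while the hepatocyte and bile duct sums overlapped those of DMSO. Of the 7 Kupffer markers tested, 1 fell and 0 rose at 60 uM at either time (14.3% and 0%). Of all probe sets, 4.43% fell and 4.62% rose at 48 h, and 3.14% and 3.43% at 24 h. Of the 7 changes, 5 were above 0 at 48 h (median 0.11) and 2 at 24 h (median -0.08). Sums of the endothelial, stellate and lymphoid markers overlapped between these groups at both times. Among the bile duct markers, Krt7 lay under the signal of the bacterial controls. The share of probe sets above that control signal was 80.8 to 82.0% at 1000 uM, against 89.9 to 91.4% in DMSO at 48 h, and 93.6 to 94.4% against 86.0 to 89.6% at 24 h, so it moved in opposite ways at the 2 times. At 60 uM it was 84.2 to 86.2% at 48 h, clear of DMSO, and 86.9 to 88.7% at 24 h, within the DMSO range. The cutoff was the highest mean of these control probe sets within each group, the same for its 5 arrays. It ran from 4.48 to 6.31 on the log2 scale between groups, so gaps in this share follow the cutoff as well as the probe sets. The 3' to 5' signal ratio of GAPDH, a measure of RNA integrity, overlapped between 1000 uM and DMSO, at 1.11 to 1.16 at 1000 uM, against 1.16 to 1.20 in DMSO at 48 h, and 1.12 to 1.18 against 1.15 to 1.21 at 24 h. The GAPDH means were lower at 1000 uM, at 1.14 against 1.18 at 48 h and 1.15 against 1.17 at 24 h. The ratio of actin also overlapped, but with higher means at 1000 uM. It was 2.25 to 2.68 (mean 2.48) against 2.11 to 2.45 (mean 2.33) at 48 h, and 2.39 to 2.72 (mean 2.56) against 2.26 to 2.64 (mean 2.42) at 24 h. The part of these shifts in the results was not tested. Fewer cells of a type, less RNA per cell and a change of the marker genes themselves cannot be told apart. Scaling the arrays by the added poly-A controls in place of the deposited scaling raised the median change of all probe sets by 0.23 for 1000 uM at 24 h, 0.15 for 1000 uM at 48 h, 0.12 for 60 uM at 24 h, 0.034 for 60 uM at 48 h, 0.11 and 0.12 for 1000 uM over 60 uM at 24 and 48 h, and 0.17 for time in DMSO. Scaling by these controls also gave wider SEs, so some calls were lost although the change had grown. All changes here are relative to the deposited scaling, and calls that turn on this choice are named.

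At 1000 uM the pathway did not move as a block. At 48 h, 10 of the 27 genes rose and 7 fell against DMSO, beside 15.2% and 22.7% of all 18625 probe sets. The rises sat mostly in the steps from squalene to cholesterol, where 7 of 11 genes rose. At 24 h, 5 rose and 10 fell, beside 11.5% and 17.4% of all probe sets, and 5 of the 7 genes of the mevalonate steps were among the falls. Under the poly-A scaling 8 of these 15 calls at 24 h were kept and 4 changed sign, while 11 of the 17 calls at 48 h were kept and 0 changed sign. At 60 uM, 2 rose and 3 fell at 24 h, beside 3.43% and 3.14% of all probe sets. At 48 h under that dose 4 rose and 5 fell, beside 4.62% and 4.43%. The median change of the 27 genes was -0.07 for 60 uM and -0.09 for 1000 uM at 24 h, and -0.08 and then 0.03 at 48 h, against medians over all probe sets of -0.03, -0.05, -0.0044 and -0.04 in the same order. Set against 60 uM, 1000 uM gave 11 higher and 2 lower genes at 48 h, beside 10.0% and 15.3% of all probe sets. At 24 h the same comparison gave 5 higher and 3 lower, beside 7.50% and 10.4%. In DMSO cultures 10 genes were higher and 1 lower at 48 h than at 24 h, beside 3.88% and 3.07% of all probe sets. The effect of 1000 uM was higher at 48 h than at 24 h for 4 genes and lower for 0, beside 4.17% and 4.12%. For 60 uM the effect differed between times for 0 genes, beside 0.0376% of all probe sets higher and 0.0483% lower, and at an unadjusted p under 0.05 for 1 gene. The 27 genes stood between percentiles 71.6 and 98.8 of mean signal, while the 18625 probe sets reach down to percentile 40. The shares set side by side here are thus not matched for signal.

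**Figure D1:**
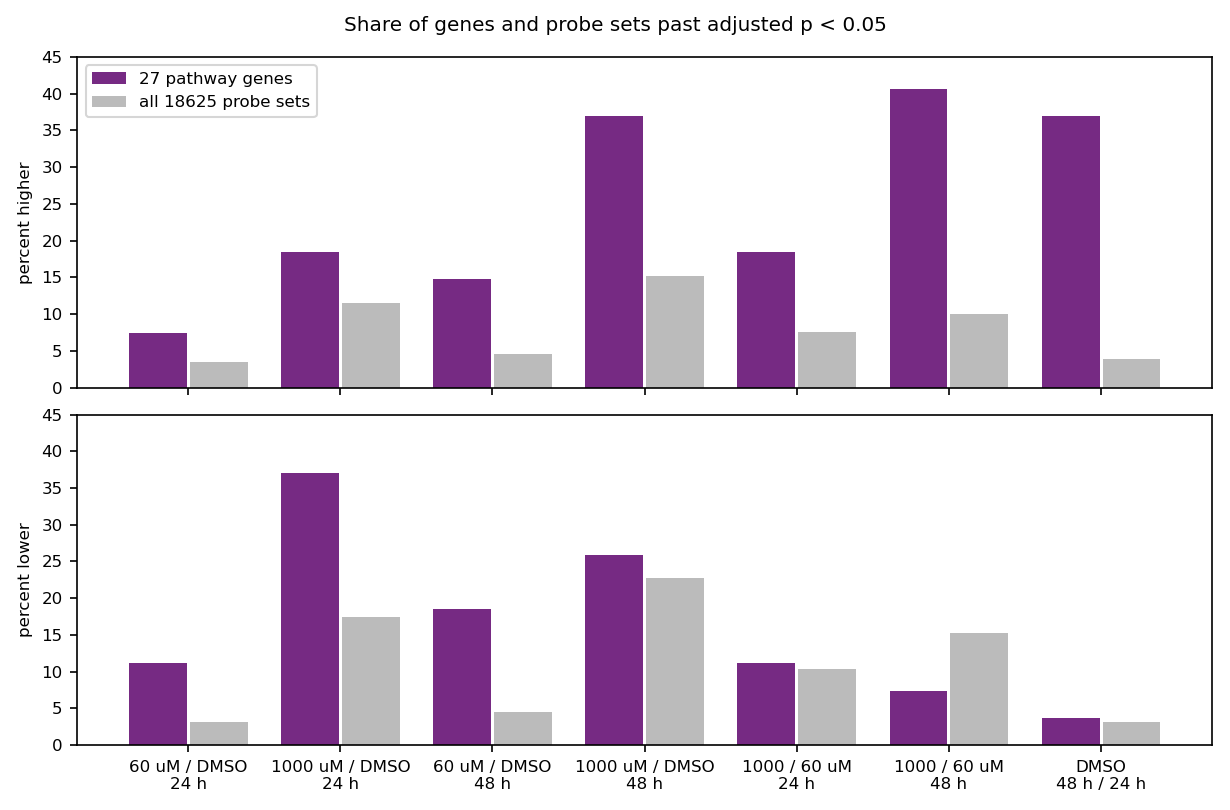
Percent of the 27 cholesterol pathway genes (purple) and of all 18625 probe sets (grey) past adjusted p < 0.05 in each comparison, higher in the top panel and lower in the bottom panel. The purple bars stand at 37% higher for 1000 uM at 48 h, 40.7% for 1000 uM against 60 uM at 48 h and 37% for 48 h against 24 h in DMSO. Counts for 1000 uM at 24 h shift with the scaling of the arrays. The 27 genes are brighter than most of the 18625 probe sets, so the bars are not matched for signal.

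In the first steps, from acetyl-CoA to the isoprenoid diphosphates, 5 of 7 genes fell at 1000 uM and 24 h, beside 17.4% of all probe sets. Of the 5 genes, Acat2, Idi1 and Fdps changed sign under the poly-A scaling, and the calls on Mvk and Pmvk were lost there. Median centring of the arrays also ended the calls on Acat2, Idi1 and Fdps. Mvk encodes mevalonate kinase, which adds the first phosphate to mevalonate. Its signals at 24 h were 2135, 2523, 2013, 1762 and 1951 under DMSO, 1719.6, 1933, 1660.4, 1837 and 1552 at 60 uM and 1395, 1622, 1376, 1264 and 1670.3 at 1000 uM. At 48 h they were 1985, 2094, 2251, 2500.5 and 1746 under DMSO, 2171, 2260.4, 2163, 2294 and 1829 at 60 uM and 1879.5, 1743, 1750.4, 1931 and 1875 at 1000 uM. All 5 arrays at 1000 uM and 24 h lay under all 5 DMSO arrays, and the groups overlapped at 48 h. The fall at 24 h was -0.50 ± 0.10 (adjusted p = 8.85e-05), a level 1.41-fold lower, and the change at 48 h was -0.20 ± 0.10 (adjusted p = 0.108). At 60 uM the changes were -0.25 ± 0.10 at 24 h and 0.02 ± 0.10 at 48 h, and neither passed. Mvk did pass for 1000 uM at 48 h without DMSO replicate 5 (log2 change -0.26).

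Pmvk, phosphomevalonate kinase, adds the next phosphate. Its signals at 24 h were 6319.9, 6864, 6947, 7412 and 5529 under DMSO, 6568, 6337, 6269.8, 6281 and 6096 at 60 uM and 5472, 6095, 5664, 5371 and 5332 at 1000 uM. At 48 h it stood at 7660.1, 8563, 7866, 7324 and 7095 under DMSO, 6517, 7124, 6729.9, 6469 and 7867 at 60 uM and 6999, 6822, 6698, 6706 and 6309 at 1000 uM. The 1000 uM arrays lay wholly under the DMSO arrays at 48 h and overlapped them at 24 h. Pmvk fell by 0.24 ± 0.06 at 1000 uM and 24 h and by 0.20 ± 0.06 at 48 h (adjusted p = 0.00371 and 0.0127). The poly-A scaling left changes of -0.0043 at 24 h and -0.05 at 48 h, neither of which passed, and median centring ended the call at 48 h. Its change for 60 uM was -0.06 ± 0.06 at 24 h and -0.15 ± 0.06 at 48 h, and neither passed. The Pmvk call for 1000 uM at 48 h was not kept without DMSO replicate 2 (log2 change -0.16). Pmvk did pass for 60 uM at 48 h without 60 uM replicate 5 (log2 change -0.20).

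Idi1, isopentenyl diphosphate isomerase, makes the allylic partner for chain building. Its signals at 24 h were 8782, 8613, 9457, 7927 and 7349 under DMSO, 7549, 7683, 7610.1, 8514 and 6098 at 60 uM and 8012, 6869, 6468, 6978 and 7508 at 1000 uM. At 48 h the values were 10573, 10635, 9933, 8154 and 10767 under DMSO, 8424, 9604, 8149, 10139 and 9965 at 60 uM and 10516, 10797, 9657, 11055 and 8835 at 1000 uM. The groups overlapped at both times. Idi1 passed for 1000 uM at 24 h alone, at -0.23 ± 0.09 (adjusted p = 0.0419), and its change there was 0.0019 under the poly-A scaling. At 48 h its change was 0.03 ± 0.09 for 1000 uM (adjusted p = 0.854). The Idi1 call for 1000 uM at 24 h was not kept without 1000 uM replicate 2, 3 or 4 or DMSO replicate 1, 2 or 3 (log2 change -0.22 to -0.19).

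Among the other mevalonate genes, Acat2, the cytosolic thiolase that opens the route, fell at 1000 uM at both times, by 0.23 ± 0.07 at 24 h and 0.22 ± 0.07 at 48 h, and at 60 uM it fell by 0.24 ± 0.07 at 48 h. Under the poly-A scaling none of these 3 calls was kept, that at 24 h came to 0.0055, and median centring ended both calls for 1000 uM. Fdps, farnesyl diphosphate synthase, was higher at 1000 uM and 48 h (0.14 ± 0.04, adjusted p = 0.0112) and lower at 24 h (-0.15 ± 0.04, adjusted p = 0.00831). Its signal averaged 38996 ± 1535 at 1000 uM, against 35497 ± 1399 in DMSO at 48 h, and 28374 ± 968 against 31433 ± 1998 at 24 h (SD, n = 5). Subtracting the earlier effect gave 0.28 ± 0.06 (adjusted p = 0.00191). With poly-A scaling the change at 24 h was 0.09, and the difference between the times no longer passed. Quantile normalization ended the call at 48 h. Mvd, which decarboxylates mevalonate diphosphate, passed against DMSO at neither dose, with changes between -0.26 and -0.01. Ggps1, which lengthens farnesyl to geranylgeranyl diphosphate, did not pass either, between -0.14 and 0.03. The Acat2 call for 1000 uM at 24 h was not kept without 1000 uM replicate 1 or DMSO replicate 1 (log2 change -0.19 to -0.17). The Acat2 call for 60 uM at 48 h was not kept without 60 uM replicate 1 or DMSO replicate 2 (log2 change -0.19). The Acat2 call for 1000 uM at 48 h was not kept without 1000 uM replicate 5 or DMSO replicate 2 (log2 change -0.18 to -0.16).

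**Figure D2:**
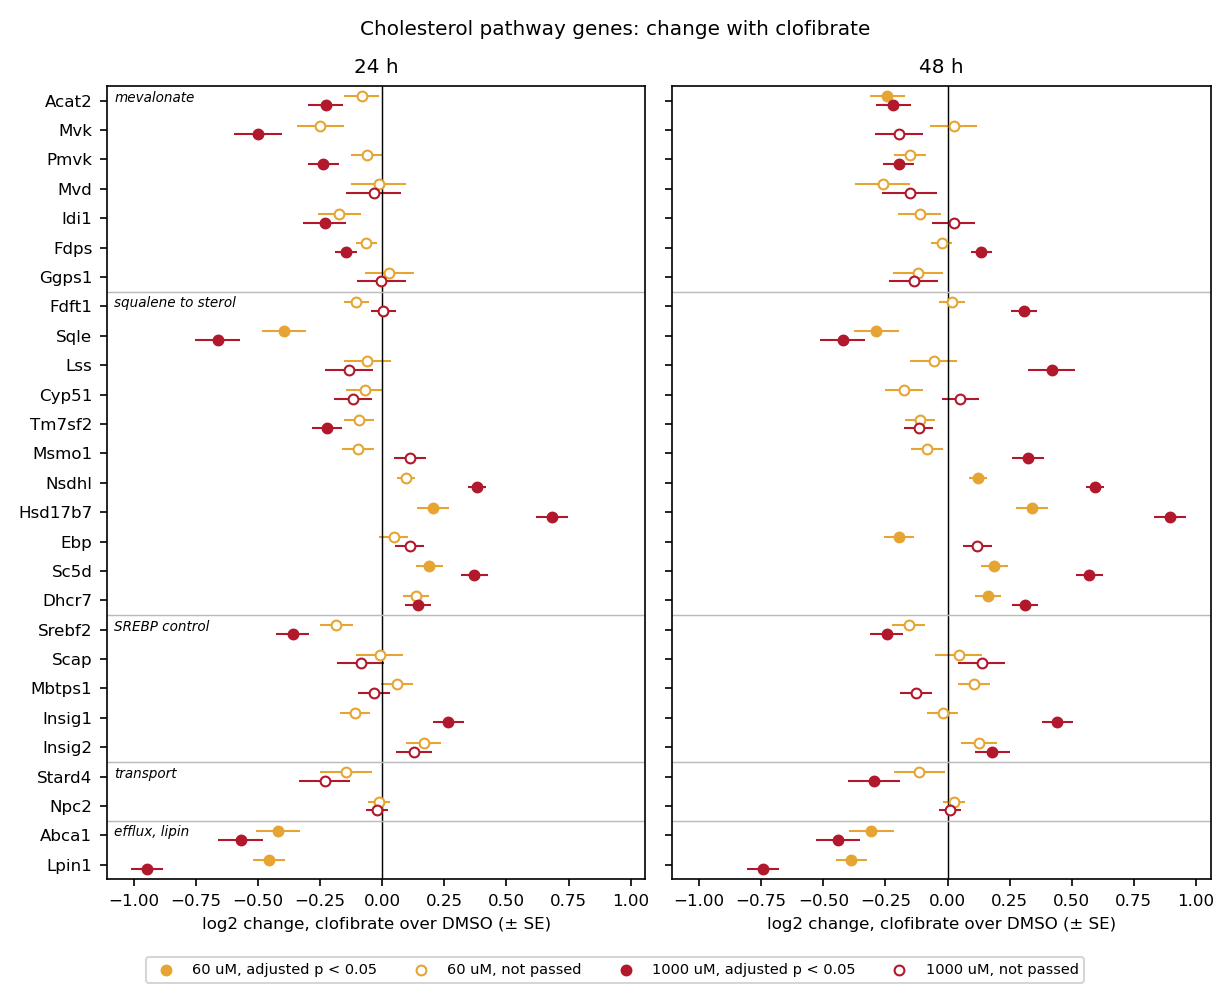
Log2 change ± SE, clofibrate over DMSO, for the 27 genes in pathway order at 24 h (left) and 48 h (right), with 60 uM in yellow and 1000 uM in red and filled points past adjusted p < 0.05. At 1000 uM Hsd17b7 is farthest to the right at both times (0.68 at 24 h, 0.90 at 48 h) and Lpin1 farthest to the left (-0.95 and -0.74). Acat2, Idi1, Fdps and Tm7sf2 changed sign at 24 h under the poly-A scaling.

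In the steps after squalene, Hsd17b7, Nsdhl and Sc5d rose at 1000 uM at both times, and these calls were kept in every alternative processing run. Hsd17b7 encodes the sterol ketone reductase and Nsdhl the dehydrogenase of the complex that removes methyl groups from early sterols, and Sc5d the desaturase that acts near the end. Hsd17b7 signals at 24 h were 4746, 4173, 4121, 4554 and 4337 under DMSO, 4956, 5199.8, 4739, 5314 and 5068 at 60 uM and 6605, 6467, 6649, 7510.3 and 8094 at 1000 uM. At 48 h they stood at 5077, 5007, 4559.5, 4985 and 4401 under DMSO, 6384, 6137, 5886, 6046 and 5963 at 60 uM and 9543, 7602, 9076, 8731 and 9889 at 1000 uM. The 1000 uM arrays lay above every DMSO and every 60 uM array at each time. Hsd17b7 was 1.61-fold higher at 1000 uM and 24 h (log2 0.68 ± 0.06, adjusted p = 2.11e-10) and 1.86-fold higher at 48 h (0.90 ± 0.06, adjusted p = 2.22e-13). It was also higher at 60 uM, by 0.21 ± 0.06 at 24 h (adjusted p = 0.0481) and 0.34 ± 0.06 at 48 h (adjusted p = 3.03e-04), with no overlap of arrays at 48 h. The call for 60 uM at 24 h was not kept under quantile normalization, with no low-signal filter or with no intensity trend. Nor was it kept under the poly-A scaling, where the change was 0.33 ± 0.10. Its second-brightest probe set gave 0.41 at 24 h and 0.52 at 48 h for 1000 uM, both of which passed, and 0.06 and 0.07 for 60 uM, neither of which passed. The Hsd17b7 call for 60 uM at 24 h was not kept without 60 uM replicate 1, 2, 4 or 5 or DMSO replicate 2, 3, 4 or 5 (log2 change 0.18 to 0.22). Hsd17b7 did pass for the 1000 uM effect between times without 1000 uM 48 h replicate 2 (log2 change 0.27).

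Nsdhl signals at 24 h were 14004, 13113, 14249.7, 12913 and 12734 under DMSO, 14077, 14706, 13927, 14729 and 14035 at 60 uM and 17246, 16946, 17780.0, 16809 and 18384 at 1000 uM. At 48 h its values were 16040.5, 15728, 15506, 14937 and 15658 under DMSO, 16826, 17414, 16648, 16894 and 17005 at 60 uM and 23118, 23371, 22531, 23422 and 25004 at 1000 uM. The 1000 uM arrays stood apart from the other groups at both times, and the 60 uM arrays lay above the DMSO arrays at 48 h only. The rise at 1000 uM was 0.59 ± 0.04 at 48 h (adjusted p = 4.50e-15) and 0.38 ± 0.04 at 24 h (adjusted p = 3.24e-10). The effect was larger at 48 h than at 24 h by 0.21 ± 0.05 (adjusted p = 0.00642), a difference that did not pass under the poly-A scaling. At 60 uM Nsdhl changed by 0.09 ± 0.04 at 24 h, which did not pass, and rose by 0.12 ± 0.04 at 48 h (adjusted p = 0.0263). That call was lost under quantile normalization and under the poly-A scaling, where the change was 0.16 ± 0.08. Sc5d averaged 13013 ± 969 at 1000 uM, against 10043 ± 269.6 in DMSO at 24 h, and 16629 ± 785 against 11191 ± 569 at 48 h (SD, n = 5). Its rise was 0.37 ± 0.05 at 24 h (adjusted p = 1.53e-06) and 0.57 ± 0.05 at 48 h (adjusted p = 1.78e-10), with no overlap of arrays at either time. For 60 uM it rose by 0.19 ± 0.05 at 24 h and 0.19 ± 0.05 at 48 h. The call at 24 h was lost under quantile normalization and with no intensity trend, and that at 48 h under the poly-A scaling, at 0.22 ± 0.09. The Nsdhl call for 60 uM at 48 h was not kept without 60 uM replicate 2 or DMSO replicate 3 or 4 (log2 change 0.11 to 0.12). The Sc5d call for 60 uM at 24 h was not kept without 60 uM replicate 3, 4 or 5 or DMSO replicate 2 or 5 (log2 change 0.15 to 0.19). The Sc5d call for 60 uM at 48 h was not kept without 60 uM replicate 3 or 4 or DMSO replicate 4 or 5 (log2 change 0.17 to 0.18).

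The start-site sequences of the 2 genes that rose most in this group are shown for their CCAAT boxes, the letters bound by NF-Y, a known partner of SREBP at these promoters. Each is 300 bases from RefSeq on build GRCr8, with 250 bases before the annotated start site, written 5′ to 3′ along the gene with matches to the searched motifs in capitals. The window of Hsd17b7 lies at chr13:84722705-84723004, minus strand, and that of Nsdhl at chrX:155817110-155817409, plus strand. The first held 3 CCAAT boxes and the second held 5, counted on both strands (ATTGG is the reverse complement).
Hsd17b7: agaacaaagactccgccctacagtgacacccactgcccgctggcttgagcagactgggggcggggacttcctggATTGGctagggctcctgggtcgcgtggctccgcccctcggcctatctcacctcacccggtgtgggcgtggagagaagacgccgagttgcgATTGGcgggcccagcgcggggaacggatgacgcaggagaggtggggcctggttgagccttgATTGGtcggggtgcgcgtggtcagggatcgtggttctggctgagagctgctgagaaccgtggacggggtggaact
Nsdhl: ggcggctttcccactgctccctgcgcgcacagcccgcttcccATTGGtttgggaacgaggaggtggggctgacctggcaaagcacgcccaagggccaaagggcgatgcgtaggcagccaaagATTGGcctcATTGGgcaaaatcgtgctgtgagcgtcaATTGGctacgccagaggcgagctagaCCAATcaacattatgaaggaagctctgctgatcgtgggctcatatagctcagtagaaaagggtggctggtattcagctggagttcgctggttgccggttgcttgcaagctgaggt

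Sqle, squalene epoxidase, which makes the first oxygenated intermediate, moved the other way. Its signals at 24 h were 7841, 8875, 7722, 8943 and 8766 under DMSO, 5762, 5719.9, 6721, 7292 and 6615 at 60 uM and 4571, 5529, 4742, 5729 and 6165 at 1000 uM. At 48 h Sqle stood at 10324, 12497, 10157, 9822 and 8841 under DMSO, 7763, 9477, 7550.4, 7949.9 and 9538 at 60 uM and 8725, 7084, 7545, 7100.3 and 7959 at 1000 uM. All 1000 uM arrays lay under all DMSO arrays at both times, and all 60 uM arrays did so at 24 h. Sqle fell at 1000 uM by 0.66 ± 0.09 at 24 h (adjusted p = 4.18e-07) and by 0.42 ± 0.09 at 48 h (adjusted p = 2.85e-04). At 60 uM it fell by 0.40 ± 0.09 at 24 h (adjusted p = 0.00396) and 0.29 ± 0.09 at 48 h (adjusted p = 0.0394). Under the poly-A scaling the call for 1000 uM at 24 h was kept, at -0.43, and the other 3 were lost, at -0.27 for 1000 uM at 48 h, -0.27 for 60 uM at 24 h and -0.25 for 60 uM at 48 h. The Sqle call for 60 uM at 48 h was not kept without 60 uM replicate 1, 3 or 4 or DMSO replicate 1, 2 or 3 (log2 change -0.29 to -0.22).

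Around Sqle, 3 enzymes rose at 1000 uM at 48 h and did not pass at 24 h. Fdft1, squalene synthase, which commits farnesyl diphosphate to sterols, averaged 7923 ± 332 at 1000 uM, against 6406 ± 367 in DMSO at 48 h. Its change was 0.31 ± 0.05 there (adjusted p = 9.37e-06) and 0.00 ± 0.05 at 24 h (95% interval -0.10 to 0.11). Lss, lanosterol synthase, averaged 3679.8 ± 721 at 1000 uM, against 2721 ± 270.5 in DMSO at 48 h (SD, n = 5 each). Its change was 0.42 ± 0.09 at 48 h (adjusted p = 5.47e-04) and -0.13 ± 0.09 at 24 h. Msmo1, methylsterol monooxygenase, rose by 0.33 ± 0.06 at 48 h (adjusted p = 9.95e-05) and changed by 0.11 ± 0.06 at 24 h, where it did pass under the poly-A scaling. The effect of 1000 uM was larger at 48 h than at 24 h by 0.30 ± 0.07 for Fdft1 (adjusted p = 0.00584) and by 0.55 ± 0.13 for Lss (adjusted p = 0.00644), both lost under the poly-A scaling, and that of Fdft1 also with its second-brightest probe set. For Msmo1 the difference between times was 0.21 ± 0.09 and did not pass (adjusted p = 0.167). None of the 3 passed at 60 uM. Msmo1 did pass for the 1000 uM effect between times without 1000 uM 24 h replicate 5 (log2 change 0.27).

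Among the remaining sterol enzymes, Dhcr7, the dehydrocholesterol reductase that ends one branch, rose by 0.14 ± 0.05 at 24 h and 0.31 ± 0.05 at 48 h for 1000 uM (adjusted p = 0.0393 and 1.13e-05), and by 0.16 ± 0.05 for 60 uM at 48 h (adjusted p = 0.0486). The call for 1000 uM at 48 h was kept in every alternative run, and the others were lost under quantile normalization. That at 60 uM was also lost under the poly-A scaling, at 0.20 ± 0.09. Tm7sf2, a sterol reductase that acts after Cyp51, was lower at 1000 uM and 24 h (-0.22 ± 0.06, adjusted p = 0.00476), a change of 0.01 under the poly-A scaling, and median centring ended that call. Ebp, the sterol isomerase, passed against DMSO only as a fall at 60 uM and 48 h (-0.19 ± 0.06, adjusted p = 0.0318), which median centring, quantile normalization and the poly-A scaling each ended. For 1000 uM it did pass as higher under the poly-A scaling, with 0.27 at 48 h and 0.34 at 24 h. Cyp51, lanosterol demethylase, passed against DMSO at neither dose, with changes between -0.18 and 0.05. The Dhcr7 call for 1000 uM at 24 h was not kept without 1000 uM replicate 1, 2 or 5 or DMSO replicate 3, 4 or 5 (log2 change 0.12 to 0.14). The Dhcr7 call for 60 uM at 48 h was not kept without 60 uM replicate 2, 4 or 5 or DMSO replicate 2, 3, 4 or 5 (log2 change 0.13 to 0.16). Tm7sf2 did pass for 1000 uM at 48 h without DMSO replicate 4 or 5 (log2 change -0.15). The Ebp call for 60 uM at 48 h was not kept without 60 uM replicate 3 or 4 or DMSO replicate 1, 2 or 3 (log2 change -0.20 to -0.15). Ebp did pass for 1000 uM at 24 h without 1000 uM replicate 5 (log2 change 0.18). Cyp51 did pass for 60 uM at 48 h without DMSO replicate 4 (log2 change -0.24).

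**Figure D3:**
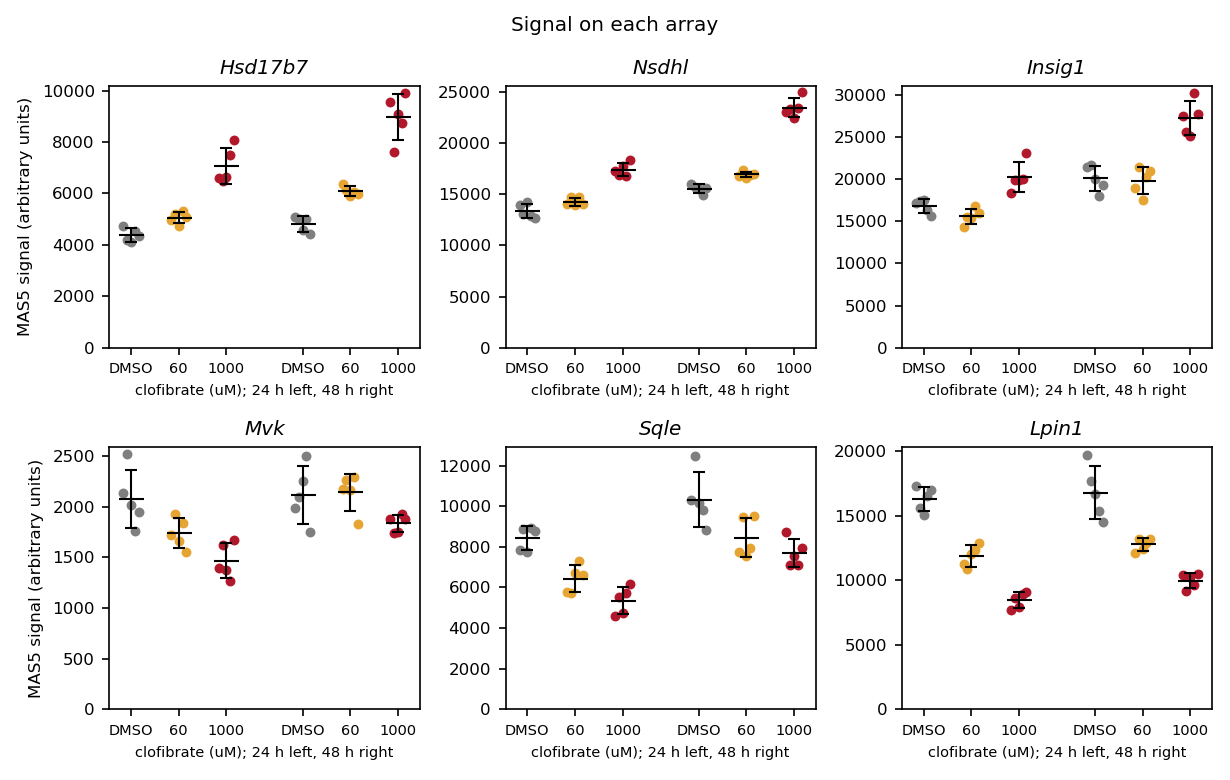
MAS5 signal (arbitrary units, linear axis from 0) of 6 genes on each of the 30 arrays, by dose (DMSO, 60 uM, 1000 uM) at 24 h (left 3 columns) and 48 h (right 3), with the mean and SD in black. Hsd17b7 and Nsdhl are highest at 1000 uM at both times, with 60 uM clear of DMSO at 48 h only. Lpin1 steps down with dose at both times, Insig1 is highest at 1000 uM, and the Mvk groups overlap at 48 h.

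Of the control proteins, Insig1 rose and Srebf2 fell at 1000 uM. Insig1, which holds Scap in the endoplasmic reticulum and is itself a target of SREBP, had signals at 24 h of 17188, 17435, 17524, 16395 and 15621 under DMSO, 14296, 15478, 15380.3, 16820.3 and 16059.5 at 60 uM and 18414, 19890.5, 19901, 20053 and 23177 at 1000 uM. At 48 h Insig1 stood at 21445, 21740.4, 20040.2, 18056 and 19290.2 under DMSO, 18920.0, 21492, 17552, 20270.3 and 20984 at 60 uM and 27581, 25656, 25212, 30309 and 27831 at 1000 uM. The 1000 uM arrays lay above all others of their time, and the 60 uM and DMSO arrays overlapped. Its rise at 1000 uM was 0.27 ± 0.06 at 24 h (adjusted p = 0.00105) and 0.44 ± 0.06 at 48 h (adjusted p = 5.34e-07), kept in every alternative run. At 60 uM the change was -0.11 ± 0.06 at 24 h and -0.02 ± 0.06 at 48 h, and neither passed. The Insig1 window is shown since it held every motif searched, which the other members' windows did not: CACNCCAC, the core of the sterol regulatory element that SREBP binds, CCAAT, and the E-box CACGTG. It lies at chr4:8057720-8058019, minus strand (GRCr8, RefSeq) and held 2 sterol element cores, 1 CCAAT box and 1 E-box.
Insig1: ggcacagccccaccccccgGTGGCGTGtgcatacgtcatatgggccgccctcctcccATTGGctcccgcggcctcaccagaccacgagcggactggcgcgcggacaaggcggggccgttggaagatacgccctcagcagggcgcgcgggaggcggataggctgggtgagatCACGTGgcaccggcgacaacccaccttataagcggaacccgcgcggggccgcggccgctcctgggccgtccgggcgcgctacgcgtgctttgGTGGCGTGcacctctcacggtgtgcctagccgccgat

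Srebf2 encodes the SREBP precursor that drives the cholesterol genes. Its signals at 24 h were 3091, 2893, 3018, 3041 and 3132 under DMSO, 2804, 2607, 2575, 2731 and 2625 at 60 uM and 2239, 2478, 2425, 2186 and 2509 at 1000 uM. At 48 h Srebf2 had 3116, 3130.3, 2937, 2783 and 2990.0 under DMSO, 2759, 3019, 2708, 2435 and 2529.6 at 60 uM and 2513, 2416, 2653, 2159.5 and 2943 at 1000 uM. All 1000 uM arrays lay under all DMSO arrays at 24 h, and the groups overlapped at 48 h. Srebf2 fell by 0.36 ± 0.07 at 1000 uM and 24 h (adjusted p = 5.94e-05) and by 0.24 ± 0.07 at 48 h (adjusted p = 0.00361), and both calls were lost under the poly-A scaling, at -0.13 and -0.09. At 60 uM it did not pass, with changes of -0.19 ± 0.07 at 24 h, where its arrays also lay under the DMSO arrays, and -0.16 ± 0.07 at 48 h.

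Insig2, the second Insig protein, had signals at 24 h of 18710.5, 20836, 19507, 17555 and 18709 under DMSO, 20964, 21798, 20467, 20551 and 23105 at 60 uM and 19986, 19665, 23205, 21432 and 19906 at 1000 uM. At 48 h Insig2 had 16695, 17353, 15295, 21016 and 20302 under DMSO, 22266, 18767, 18610.2, 18325 and 20609 at 60 uM and 19846, 18961, 21618, 19189 and 22676 at 1000 uM. The doses overlapped at both times. It passed for 1000 uM at 48 h only, at 0.18 ± 0.07 (adjusted p = 0.0443), and the call was lost under quantile normalization, with no low-signal filter and with no intensity trend. Under the poly-A scaling it also passed for 1000 uM at 24 h, at 0.36. Its second probe set was higher at both doses and both times, by 0.21 at 60 uM and 0.16 at 1000 uM at 24 h, and by 0.23 at either dose at 48 h, all of which passed. Scap, the escort, did not pass, with changes against DMSO between -0.09 and 0.14. Mbtps1, the protease that makes the first cut in SREBP, did not pass against DMSO either, between -0.13 and 0.11. The Insig2 call for 1000 uM at 48 h was not kept without 1000 uM replicate 1, 3 or 5 or DMSO replicate 1, 2 or 3 (log2 change 0.12 to 0.19).

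Lpin1 and Abca1 fell at both doses and both times. Lpin1 encodes lipin, a phosphatidate phosphatase of glycerolipid synthesis that also acts as a coactivator of PPAR-alpha. Its signals at 24 h were 17286, 15557, 15059, 16510.2 and 16979 under DMSO, 11237, 10857, 12058, 12361 and 12902 at 60 uM and 7699, 8649, 7945, 8884 and 9079.5 at 1000 uM. At 48 h Lpin1 had 19682, 17699, 16671, 15323 and 14513 under DMSO, 12095, 13214, 12389, 12904 and 13225 at 60 uM and 10382, 9181, 10242, 9594 and 10443 at 1000 uM. All clofibrate arrays lay under all DMSO arrays at both times, and the 1000 uM arrays lay under the 60 uM arrays. Lpin1 was 1.93-fold lower at 1000 uM and 24 h (log2 -0.95 ± 0.06, adjusted p = 8.73e-14) and 1.68-fold lower at 48 h (-0.74 ± 0.06, adjusted p = 1.97e-11). At 60 uM it changed by -0.45 ± 0.06 at 24 h (adjusted p = 5.28e-06) and -0.39 ± 0.06 at 48 h (adjusted p = 5.35e-05). The call for 60 uM at 24 h did not pass under the poly-A scaling (-0.33), and the other 3 were kept in every alternative run. Its second probe set fell in the same 4 comparisons, by 1.00 at 1000 uM and 24 h. The Lpin1 window is shown as that of the deepest fall, and it held 1 CCAAT box, at chr6:45108893-45109192, minus strand (GRCr8, RefSeq).
Lpin1: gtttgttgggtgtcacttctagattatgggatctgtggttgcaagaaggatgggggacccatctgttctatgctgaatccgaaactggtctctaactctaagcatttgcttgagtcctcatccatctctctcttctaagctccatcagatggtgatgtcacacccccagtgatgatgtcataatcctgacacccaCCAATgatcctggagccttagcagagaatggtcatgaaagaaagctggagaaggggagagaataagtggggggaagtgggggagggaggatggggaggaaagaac

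Abca1 exports cholesterol to apolipoprotein A-I. Its signals at 24 h were 5056, 4893, 4742, 4734 and 5020.3 under DMSO, 4222, 3321, 3069.8, 3433 and 4391 at 60 uM and 3690.5, 2885, 3164, 3734 and 3069 at 1000 uM. At 48 h Abca1 had 4391, 5011, 4219.7, 4999 and 3979 under DMSO, 3843, 3464, 3661, 3339 and 3917 at 60 uM and 3513, 3595, 3479, 2751 and 3313 at 1000 uM. The clofibrate arrays lay under the DMSO arrays at both doses and times. Abca1 changed by -0.57 ± 0.09 at 1000 uM and 24 h (adjusted p = 5.62e-06) and -0.44 ± 0.09 at 48 h (adjusted p = 1.65e-04). For 60 uM the change was -0.42 ± 0.09 at 24 h (adjusted p = 0.00210) and -0.31 ± 0.09 at 48 h (adjusted p = 0.0251). Under the poly-A scaling the call for 1000 uM at 24 h was kept, at -0.34, and the other 3 were lost. Its 3 further probe sets were lower in all 4 comparisons and passed in 3 of 3 for 1000 uM at 24 h, in 1 for 1000 uM at 48 h, and in 0 for 60 uM. The Abca1 call for 60 uM at 48 h was not kept without 60 uM replicate 2 or 4 or DMSO replicate 2 or 4 (log2 change -0.29 to -0.27).

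Of the sterol carriers, Stard4, which moves cholesterol through the cytosol, had signals at 24 h of 1595, 1486, 1663, 1463 and 1396 under DMSO, 1399, 1303, 1571, 1397 and 1209.6 at 60 uM and 1354, 1346, 1086, 1339 and 1358 at 1000 uM. At 48 h Stard4 had 1378, 1533, 1546, 1497 and 1094 under DMSO, 1409, 1329, 1233, 1054 and 1479 at 60 uM and 1123, 1124, 1339, 1177 and 964 at 1000 uM. The 1000 uM arrays lay under all DMSO arrays at 24 h, and the doses overlapped at 48 h. It passed as lower for 1000 uM at 48 h only (-0.30 ± 0.10, adjusted p = 0.0226), and median centring, quantile normalization and the poly-A scaling each ended this call. Its second-brightest probe set gave 0.11 there, which did not pass, and 0.31 for 1000 uM at 24 h, which did, against -0.23 ± 0.10 on the brightest at 24 h. No direction is given for Stard4 for that reason. Npc2, which binds cholesterol in the lysosome, passed in no comparison, with changes against DMSO between -0.02 and 0.02, and did pass as higher, at 0.21, for 1000 uM at 24 h under the poly-A scaling. The Stard4 call for 1000 uM at 48 h was not kept without 1000 uM replicate 5 or DMSO replicate 2, 3 or 4 (log2 change -0.27 to -0.24).

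Dose was also compared directly. At 48 h, 9 of the 11 squalene and sterol genes were higher at 1000 uM than at 60 uM and 0 lower, beside 10.0% and 15.3% of all probe sets. Among the 9 genes, Hsd17b7 was higher by 0.55 ± 0.06, Lss by 0.48 ± 0.09, Nsdhl by 0.47 ± 0.04, Msmo1 by 0.41 ± 0.06, Sc5d by 0.38 ± 0.05, Ebp by 0.31 ± 0.06 and Fdft1 by 0.29 ± 0.05, all kept in every alternative run. Cyp51 was higher by 0.23 ± 0.08 and Dhcr7 by 0.15 ± 0.05, with adjusted p = 0.0239 and 0.0340. The second probe set of Cyp51 gave 0.08 and did not pass, and quantile normalization ended the call on Dhcr7. Insig1 was higher by 0.46 ± 0.06 at 48 h and by 0.38 ± 0.06 at 24 h. Fdps was higher by 0.16 ± 0.04 at 48 h, a call that quantile normalization ended. Mbtps1 and Lpin1 were lower at 1000 uM than at 60 uM at 48 h, with changes of -0.23 ± 0.06 (adjusted p = 0.00586) and -0.36 ± 0.06, and both calls were lost under the poly-A scaling. At 24 h the higher genes were Hsd17b7 (0.48 ± 0.06), Insig1, Nsdhl (0.29 ± 0.04), Msmo1 (0.21 ± 0.06) and Sc5d (0.18 ± 0.05). The lower ones were Lpin1 (-0.49 ± 0.06), Sqle (-0.27 ± 0.09) and Pmvk (-0.18 ± 0.06), and the last 2 were lost under the poly-A scaling. Mvk did pass for 1000 uM against 60 uM at 24 h without 1000 uM replicate 2 or 5 or 60 uM replicate 5 (log2 change -0.30 to -0.29). Mvk did pass for 1000 uM against 60 uM at 48 h without 60 uM replicate 5 (log2 change -0.28). The Pmvk call for 1000 uM against 60 uM at 24 h was not kept without 1000 uM replicate 1, 3, 4 or 5 or 60 uM replicate 1, 2, 3, 4 or 5 (log2 change -0.19 to -0.16). The Sqle call for 1000 uM against 60 uM at 24 h was not kept without 1000 uM replicate 1 or 3 or 60 uM replicate 3, 4 or 5 (log2 change -0.25 to -0.21). The Cyp51 call for 1000 uM against 60 uM at 48 h was not kept without 1000 uM replicate 2 or 4 or 60 uM replicate 1 or 3 (log2 change 0.16 to 0.22). The Msmo1 call for 1000 uM against 60 uM at 24 h was not kept without 1000 uM replicate 5 or 60 uM replicate 1 (log2 change 0.15 to 0.16). The Sc5d call for 1000 uM against 60 uM at 24 h was not kept without 1000 uM replicate 2 or 4 or 60 uM replicate 1 (log2 change 0.14 to 0.16). The Dhcr7 call for 1000 uM against 60 uM at 48 h was not kept without 1000 uM replicate 4 or 5 or 60 uM replicate 1, 2 or 3 (log2 change 0.11 to 0.15).

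A part of these genes also rose with time in culture without the drug. In DMSO cultures at 48 h against 24 h, 6 of 11 squalene and sterol genes, 3 of 7 mevalonate genes and Insig1 were higher, and Tm7sf2 was lower. Of all probe sets, 3.88% were higher and 3.07% lower. Leaving out 1 array gave 7 to 11 of the 27 genes higher and 1 lower. Other measures of these arrays also differed without overlap between the times. The Kupffer marker sum was 10933 to 12071 at 48 h, against 12691 to 14303 at 24 h, the bile duct sum 12603 to 15029.7 against 9815 to 11389.9, and the share of probe sets above the bacterial control signal 89.9 to 91.4% against 86.0 to 89.6%. The cutoff of that share was set within each group. The part of these measures in the rises with time was not tested. Dhcr7 signals were 14760.0, 13859, 13691, 13710.5 and 14049.5 at 48 h, against 10490.0, 10290.2, 9917, 9369 and 9385 at 24 h. That is a rise of 0.50 ± 0.05 (adjusted p = 2.21e-08) with no overlap of arrays. Tm7sf2 signals were 5229.6, 4694, 4893, 4145 and 4153 at 48 h, against 6488, 6561, 6357, 7021 and 6911 at 24 h, a fall of 0.53 ± 0.06 (adjusted p = 1.25e-07) without overlap. Msmo1 rose by 0.41 ± 0.06, Acat2 by 0.38 ± 0.07, Insig1 by 0.25 ± 0.06, Nsdhl by 0.22 ± 0.04 and Fdft1 by 0.21 ± 0.05, all with no overlap and kept in every alternative run. Sqle (0.29 ± 0.09), Cyp51 (0.26 ± 0.08), Pmvk (0.22 ± 0.06) and Fdps (0.18 ± 0.04) were also higher. Mvd, at 0.35 ± 0.11, did not pass (adjusted p = 0.0510), though it did so with median centring, quantile normalization, the poly-A scaling, an added constant or array weights. All 11 calls were kept under the poly-A scaling. Idi1 and Sc5d also passed as higher there, at 0.42 and 0.32. Fitting the DMSO groups alone ended the calls on Sqle, Pmvk and Fdps, and the fits with no low-signal filter or no intensity trend ended those on Sqle and Cyp51. The Pmvk call for time in DMSO was not kept without DMSO 48 h replicate 2 or 3 or DMSO 24 h replicate 1 or 5 (log2 change 0.16 to 0.22). Mvd did pass for time in DMSO without DMSO 48 h replicate 4 or 5 or DMSO 24 h replicate 1 (log2 change 0.40 to 0.41). Idi1 did pass for time in DMSO without DMSO 48 h replicate 4 (log2 change 0.32). The Sqle call for time in DMSO was not kept without DMSO 48 h replicate 1, 2, 3 or 4 or DMSO 24 h replicate 1, 2, 3, 4 or 5 (log2 change 0.22 to 0.31). The Cyp51 call for time in DMSO was not kept without DMSO 48 h replicate 1, 2, 3 or 5 or DMSO 24 h replicate 1, 2 or 4 (log2 change 0.23 to 0.26).

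**Figure D4:**
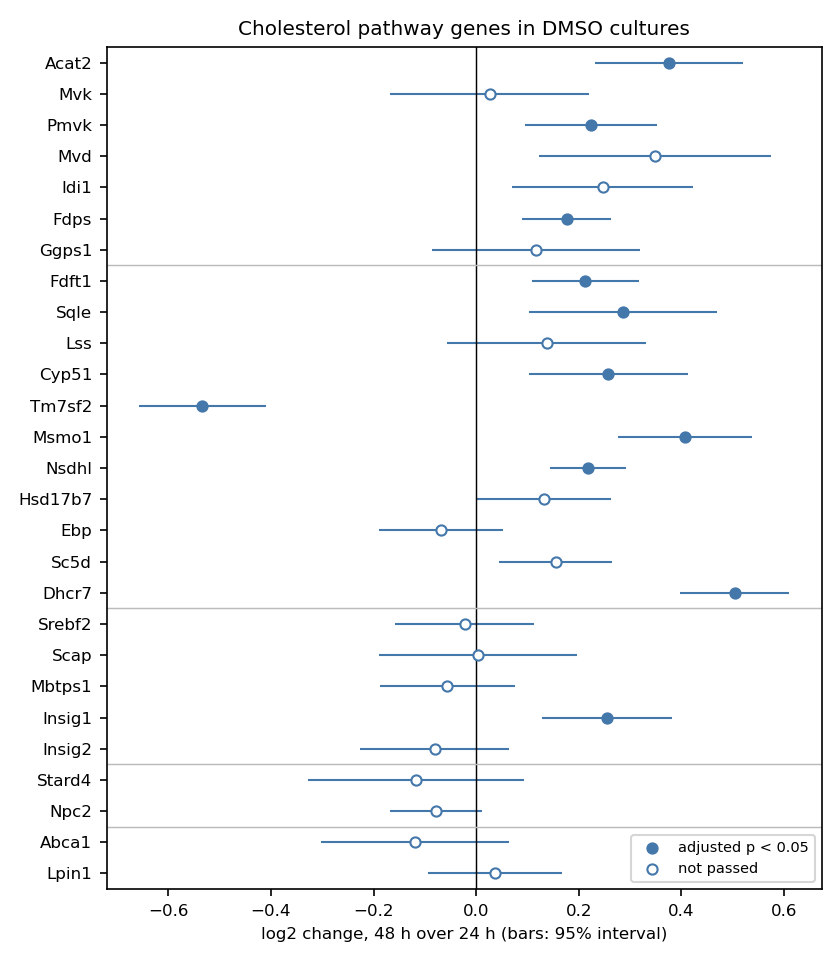
Log2 change in DMSO cultures, 48 h over 24 h, for the 27 genes in pathway order, with 95% intervals and filled points past adjusted p < 0.05. Dhcr7 (0.50) lies farthest to the right and Tm7sf2 (-0.53) farthest to the left, and the calls of both were kept in every alternative run.

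Of 57 further genes listed around the pathway, 47 were tested. Their lists were also chosen with earlier results of these data known, so the shares below are descriptions only. Their counts for 1000 uM stand beside 11.5% of all probe sets higher and 17.4% lower at 24 h, and 15.2% and 22.7% at 48 h. Of 9 efflux and LXR pathway genes, 5 rose and 2 fell at 1000 uM and 24 h (55.6% and 22.2% of the list) and 6 rose and 2 fell at 48 h (66.7% and 22.2% of the list), with medians of 0.64 and 0.35. Lpcat3, an acyltransferase that remodels phospholipids, changed by 1.64 ± 0.07 at 24 h and 1.50 ± 0.07 at 48 h at 1000 uM. Abcg1, a sterol exporter, changed by 1.42 ± 0.08 at 24 h and 1.65 ± 0.08 at 48 h, and Abcg5, a part of the biliary sterol exporter, by 1.03 ± 0.13 at 24 h and 1.37 ± 0.13 at 48 h. Abcg1 signals at 48 h were 1129, 1055, 994, 1087 and 1287 under DMSO, 1746, 1949.8, 1637, 1843 and 1686 at 60 uM and 3508, 3478, 3490.4, 3561 and 3354 at 1000 uM, with each dose clear of the one under it. The exporters thus did not share a direction, since Abca1 was lower on the same arrays. Cyp27a1, the sterol hydroxylase of bile acid synthesis, changed by -1.01 ± 0.04 at 24 h and -1.05 ± 0.04 at 48 h. All of these passed at 1000 uM with no overlap between the 5 clofibrate and 5 DMSO arrays.

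Of 11 genes of lipoprotein uptake and sterol transport, 6 rose and 1 fell at 1000 uM and 24 h (54.5% and 9.09% of the list) and 6 rose and 2 fell at 48 h (54.5% and 18.2% of the list), with medians of 0.39 and 0.39. Scarb1, the receptor for high-density lipoprotein, changed by 1.17 ± 0.12 at 24 h and 0.99 ± 0.12 at 48 h. Lipa, the lysosomal lipase that frees cholesterol from its esters, changed by 1.14 ± 0.05 at 24 h and 1.11 ± 0.05 at 48 h. Lrp1, a receptor for lipoprotein remnants, changed by 0.90 ± 0.10 at 24 h and 1.14 ± 0.10 at 48 h and Vldlr, another lipoprotein receptor, by 0.88 ± 0.10 at 24 h and 0.56 ± 0.10 at 48 h. The 1000 uM and DMSO arrays did not overlap for these 4 genes at either time. At 60 uM Lipa (0.57 at 24 h, 0.40 at 48 h) and Lrp1 (0.32 and 0.60) passed, and Scarb1 (0.19 and 0.17) and Vldlr (0.13 and 0.14) did not.

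Of 9 auxiliary and sterol-responsive genes, 2 rose and 2 fell at 1000 uM and 24 h (22.2% and 22.2% of the list) and 3 rose and 1 fell at 48 h (33.3% and 11.1% of the list), with medians of 0.01 and -0.0047. Sec14l2, a lipid transfer protein that speeds squalene epoxidation in vitro, changed by 0.93 ± 0.10 at 24 h and 1.41 ± 0.10 at 48 h, while Sqle was lower on the same arrays. Tmem97, a sterol-responsive membrane protein, changed by 0.38 ± 0.06 at 24 h and 0.69 ± 0.06 at 48 h. Erg28, known in yeast as the scaffold of the sterol demethylation complex, changed by -0.38 ± 0.05 at 24 h and -0.20 ± 0.05 at 48 h, opposite to Nsdhl and Hsd17b7. Aacs, which makes acetoacetyl-CoA for lipid synthesis, fell by 0.71 ± 0.19 at 24 h and did not pass at 48 h (-0.15 ± 0.19). Of 11 genes of the isoprenoid branches, 2 rose and 1 fell at 24 h (18.2% and 9.09% of the list) and 3 rose and 2 fell at 48 h (27.3% and 18.2% of the list), with medians of -0.01 and -0.11. Dhdds, of dolichol synthesis, changed by 0.61 ± 0.08 at 24 h and 0.55 ± 0.08 at 48 h and Pdss2, of the ubiquinone side chain, by 0.51 ± 0.10 at 24 h and 0.80 ± 0.10 at 48 h, and all 4 of these changes passed. Coq2, the next enzyme of ubiquinone synthesis, fell by 0.37 ± 0.09 at 24 h, and Icmt, which methylates prenylated proteins, rose by 0.37 ± 0.14 at 48 h.

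Of 7 genes for SREBP processing and sterol-controlled protein breakdown in the endoplasmic reticulum, 1 rose and 2 fell at 1000 uM and 24 h (14.3% and 28.6% of the list) and 1 rose and 2 fell at 48 h (14.3% and 28.6% of the list), with medians of -0.01 and -0.04. At 48 h both shares lay near those of all probe sets. Erlin1, a membrane scaffold that binds cholesterol, changed by -0.40 ± 0.06 at 24 h and -0.65 ± 0.06 at 48 h, and its partner Erlin2 by 0.10 ± 0.05 at 24 h and -0.16 ± 0.05 at 48 h, which passed at 48 h only. Ufd1, which helps pull proteins out of the membrane, changed by 0.24 ± 0.05 at 24 h and 0.30 ± 0.05 at 48 h. Rnf139, a ubiquitin ligase of that membrane, fell by 0.22 ± 0.08 at 24 h, with -0.04 ± 0.08 at 48 h, which did not pass. Alternative processing was run on the 27 genes, not on these lists.

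The shared pattern of the 18 mevalonate and sterol genes was summarised as their mean standardised log2 signal on each array. It ran -0.65 to -0.17 in DMSO, -0.82 to -0.31 at 60 uM and -0.76 to -0.30 at 1000 uM at 24 h, and 0.11 to 0.83, -0.25 to 0.52 and 0.69 to 1.04 at 48 h, in the same order of doses. The 24 h doses overlapped, and at 48 h the 60 uM and 1000 uM ranges did not overlap, while the DMSO range overlapped both. Over the 30 arrays, the correlation of single genes with this mean, which includes them, was highest for Msmo1 (r = 0.926), Fdps (r = 0.917) and Fdft1 (r = 0.890) and lowest for Tm7sf2 (r = -0.729), with Ebp at -0.15 and Hsd17b7 at 0.44. Among 10600 other named genes, the most alike over these arrays were Scd2, a fatty acid desaturase (r = 0.915), Fasn, fatty acid synthase (r = 0.882), Echdc1 (r = 0.869), Pdlim2 (r = 0.868) and Hnrnpll (r = 0.868). The arrays share 6 groups and 1 scaling, so these are descriptions with no test.

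RefSeq start-site windows were found for 24 of the 28 genes with a probe set. CCAAT was in 18 of 24 (75.0%), against 37.5% of all 33469 windows of the table. CACNCCAC was in 3 of 24 (12.5%), in Acat2, Ebp and Insig1, against 5.80% of all windows. CACGTG was in 4 of 24 (16.7%), in Abca1, Insig1, Sc5d and Scap, against 6.42%. Both strands were searched, and no match of one motif overlapped another in these 24 windows. Mvk, which fell for 1000 uM at 24 h, held 5 CCAAT boxes, as did Nsdhl, which rose. The fall of Mvk did not pass under the poly-A scaling, at -0.27. The number of boxes was not set against direction over all the windows. The Mvk window lies at chr12:47819454-47819753, minus strand (GRCr8) and is shown to set beside that of Nsdhl.
Mvk: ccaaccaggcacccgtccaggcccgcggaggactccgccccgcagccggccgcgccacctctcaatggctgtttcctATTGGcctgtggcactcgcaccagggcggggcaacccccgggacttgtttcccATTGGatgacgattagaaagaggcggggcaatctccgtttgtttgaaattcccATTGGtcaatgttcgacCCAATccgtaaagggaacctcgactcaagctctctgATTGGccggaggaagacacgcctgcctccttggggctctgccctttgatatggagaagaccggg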

How the data were processed

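Total RNA of 30 rat hepatocyte cultures was hybridised to 1 Affymetrix array each, and the deposited intensities are linear probe-set signals that the authors made with MAS5, per the submitters' processing notes. Its version is not stated in the sources at hand. With 2% of values trimmed at each end, all arrays had a mean of about 1501, so a change in total RNA per cell cannot be seen. The signals were taken to log2 as they stood. Of 31042 probe sets, 18625 with a mean log2 above the 40th percentile (8.00, a signal of 255) were fitted in limma 3.58.1 (R 4.3.3), with 1 mean per group over all 30 arrays and an intensity trend, and p-values were adjusted by Benjamini-Hochberg for each of 9 comparisons. The fit was tested on simulated data. Overlap of arrays was read gene by gene and was not counted over all probe sets.

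Gene names came from the platform's table through gene identifiers. The genes with values on every array were the up to 3 of each step group with the largest change at 1000 uM among those that passed, and the other pathway genes were up to 4 per list by the same rule. The members and lists were chosen with earlier results of these data known. Some genes of the pathway are not reported here. Alternatives were quantile normalization, median centring, scaling to the poly-A controls, a constant of 50, no filter, only the groups compared, no trend, array weights, the second-brightest probe set, leaving out each array, and a replicate block.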

Additional observations from a re-analysis of the deposited data

Results flagged for a closer look

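For 8 of 162 sets of 5 arrays (27 genes in 6 groups), the gap between an extreme array and its nearest neighbour took more than 0.71 of the range, Dixon's 95% value for 5, and chance flags about 1 set in 20. In DMSO at 48 h, replicate 2 was high for Acat2 (9700 against 8150 on the next array, a gap share of 0.829), replicate 5 was high for Fdft1 (7059 against 6284, share 0.89), and replicate 4 was low for Cyp51 (6619 against 7831 on the next, share 0.732). Replicate 2 of DMSO at 24 h was low for Msmo1 (share 0.737). At 60 uM, replicate 1 at 24 h was low for Msmo1 (9964 against 12004, share 0.851), replicate 5 at 48 h for Mvk (1829 against 2163, share 0.74), and replicate 3 at 48 h for Ebp (5720 against 6469, share 0.75). Replicate 3 of 1000 uM at 24 h was low for Stard4, at 1086 against 1339 (share 0.936).

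The effect of 1000 uM clofibrate differed between the times for 4 genes, by limma's test of the difference, 48 h minus 24 h. It was 0.28 for Fdps, 0.30 for Fdft1, 0.55 for Lss and 0.21 for Nsdhl on the log2 scale. None of these 4 differences passed under the poly-A scaling.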

How the results depend on the processing

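Counts of the 27 genes that passed moved most with the scaling and near the threshold. Under scaling to the poly-A controls, 9 genes rose and 3 fell for 1000 uM at 24 h (5 and 10 as deposited), and 1 fell for 1000 uM at 48 h (7 as deposited). With it 1 rose and 0 fell for 60 uM at 24 h (2 and 3), and 1 rose and 1 fell for 60 uM at 48 h (4 and 5). Each rise at 60 uM that was lost had a larger change there, with a wider SE. For 1000 uM against 60 uM, 1 gene was lower at 24 h (3) and 0 at 48 h (2), and the 4 differences of the 1000 uM effect between times came to 0. The changes that turned sign for 1000 uM at 24 h were 0.0055 for Acat2, 0.0019 for Idi1, 0.088 for Fdps, 0.012 for Tm7sf2 and 0.21 for Npc2, and the cause was not tested. Median centring gave 4 higher for 60 uM at 24 h, 6 lower for 1000 uM at 24 h, 4 lower for 1000 uM at 48 h, and 1 lower for 1000 uM against 60 uM at 24 h. Quantile normalization gave 0 higher for 60 uM at 24 h and 2 at 48 h. With no low-signal filter, where more probe sets share the adjustment, 1 was higher for 60 uM at 24 h, 3 were lower for 60 uM at 48 h and 1 was lower for 1000 uM against 60 uM at 24 h. Fitting only the groups compared, with fewer arrays, gave 1 higher for 60 uM at 24 h, and 2 higher and 3 lower at 48 h. Without the intensity trend 0 were higher for 60 uM at 24 h, 2 higher and 3 lower at 48 h, and 1 was lower for 1000 uM against 60 uM at 24 h. Array weights gave 5 lower in that last comparison. With the second-brightest probe set, which 13 of the genes have, 1 rose and 1 fell for 60 uM at 24 h, 5 rose for 1000 uM at 24 h, 1 fell for 60 uM at 48 h, 2 were lower for 1000 uM against 60 uM at either time, and 1 effect differed between times. Stard4 turned sign with it, at 0.31 for 1000 uM at 24 h and 0.11 at 48 h. Adding 50 to the signals moved no count by over 1.5 times.

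Leaving out 1 array gave 0 to 2 higher for 60 uM at 24 h, 1 to 4 higher and 1 to 6 lower for 60 uM at 48 h, 4 to 9 lower for 1000 uM at 48 h, and 3 to 5 higher and 1 to 4 lower for 1000 uM against 60 uM at 24 h. The titles carry a running number in which each run of 6 arrays holds 1 per group. A fit with these 5 runs as a replicate block, added after seeing the data, changed no call on the 27 genes, with 10 higher and 7 lower for 1000 uM at 48 h and 5 and 10 at 24 h. Deviations from the group means correlated between same-numbered arrays at -0.0077 to 0.047 over the 15 pairs of groups, and 11 of 30 arrays correlated best with their own run of the 5. The mean correlation was 0.0096 within runs and -0.0024 between runs, small but higher within them. The main fit took no pairing by these numbers. The 3' to 5' ratio of actin averaged 2.56, 2.54, 2.36, 2.34 and 2.33 over the runs. The 9 calls for 1000 uM at 48 h kept in every alternative were on Fdft1, Lss, Msmo1, Nsdhl, Hsd17b7, Sc5d, Dhcr7, Insig1 and Lpin1, and the 7 at 24 h were on Sqle, Nsdhl, Hsd17b7, Sc5d, Insig1, Abca1 and Lpin1.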

Other observations

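Further probe sets of the same genes were read beside the brightest ones. Each was paired with the brightest at both doses and both times against DMSO, so the 72 pairs in all hold the same probe sets more than once. Of these pairs, 22 passed in the same direction, 0 passed in opposite directions, 15 passed on the brightest alone, 5 on the other alone, and 30 on neither. The second probe set of Nsdhl rose by 0.46 for 1000 uM at 24 h and by 1.00 at 48 h, and its effect was also larger at 48 h than at 24 h, by 0.53. The third of Sc5d rose by 0.58 and 0.86 for 1000 uM and by 0.29 at either time for 60 uM, with no overlap with the DMSO arrays. The second of Mvk, the kinase of mevalonate, fell by 0.69 for 1000 uM at 24 h and by 0.39 at 48 h, where the brightest did not pass. That of Fdft1 rose by 0.38 for 1000 uM at 48 h and by 0.38 in DMSO at 48 h against 24 h.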
